A study of Mus musculus with 9 samples.

Results

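Midkine and pleiotrophin are the only members of a small family of secreted growth factors that bind heparin, and the genes described here are those for the pair (Mdk, Ptn) and for cell-surface proteins that bind them: the 4 syndecans (Sdc1, Sdc2, Sdc3, Sdc4), the receptor phosphatase PTPRZ1 (Ptprz1) and the endocytic receptor LRP1 (Lrp1). These 8 genes were taken by symbol from 55471 genes listed for each sample. Mdk and Ptn were picked because they had been seen to be higher with 5-ASA without a clear OSCAR effect, so their values are given as a description, with no test, and the other 6 genes were tested.

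RNA was sequenced from primary articular chondrocytes of wild-type mice on postnatal day 5, in 9 samples of 3 groups with 3 samples each. The Control cells had, per the study's methods, received a control adenovirus (Ad-Control), the Ad-OSCAR cells an adenovirus carrying the collagen receptor OSCAR, and the Ad-OSCAR + 5-ASA cells that virus and then 5-aminosalicylic acid, an anti-inflammatory drug used in bowel disease. All 3 groups were grown on COLpep, a collagen-like peptide that binds OSCAR, and no group received 5-ASA without Ad-OSCAR. The labels give an infection of 2 h at 400 MOI and 36 h before the drug, and the methods give 10 µM 5-ASA for 24 h, with other infection settings than the labels. Overexpression came from a virus. The study's chondrocytes came from ICR or C57BL/6J pups, with ICR named in its reporting summary, and no source ties a strain to these 9 samples. No source says either that the 3 samples of a group came from separate animals, so the p-values measure only the spread between these samples.

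Syndecans carry heparan sulfate chains on the outside of the cell, which hold heparin-binding factors such as midkine and pleiotrophin near the membrane. PTPRZ1 is a phosphatase that pleiotrophin switches off by binding, and LRP1 takes up many secreted proteins, among them midkine and cartilage-degrading proteases. In cartilage, pleiotrophin is known as a factor of the fetal and juvenile tissue, and syndecan-4 is known from osteoarthritis models.

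The total estimated count per sample was between 19733448 and 28192740. Oscar had 3 to 4 counts in each Control sample, between 173445 and 187278 in Ad-OSCAR and between 80766 and 94199 in Ad-OSCAR + 5-ASA, where it was lower than in Ad-OSCAR (log2 fold change -0.97 ± 0.06 (SE), n = 3 against 3, adjusted p = 1.76e-08, edgeR), so both the drug and a lower level of Oscar separated these groups and their parts cannot be told apart. The summed level of 7 chondrocyte markers was 13752 to 15665 TPM in Control, 870.4 to 999.6 in Ad-OSCAR and 967.5 to 1152 in Ad-OSCAR + 5-ASA, and all 7 markers were lower with OSCAR. The sum of 7 fibroblast markers ran from 4390 to 4696, from 1740 to 1836 and from 1847 to 2097 TPM in the same order, that of 5 osteoblast markers from 58.1 to 66.2, from 27.5 to 29.6 and from 35.5 to 37.6, and that of 5 macrophage markers from 7.66 to 10.9, from 19.8 to 22.0 and from 15.66 to 16.99, with Ptprc and Adgre1 at 3 counts or fewer in every sample. Not every marker moved with its sum. With OSCAR, 6 of the 7 fibroblast markers were lower and 1 was higher (adjusted p under 0.05, edgeR). Of 4 tested osteoblast markers 3 were lower and 1 was higher, and of 3 tested macrophage markers 2 were higher and 1 was not called. A sum of 4 glial markers, most of it S100b, which chondrocytes also express, ran from 102 to 113, from 45.2 to 47.1 and from 42.4 to 45.1 TPM with Sox10 at 0 throughout, and the endothelial and erythroid sums did not exceed 0.31 and 0.52 TPM. Their part in the results below was not tested, and in such bulk samples fewer cells of a type and less RNA per cell cannot be told apart.

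The syndecans and Lrp1 stood far above the ligands, and Ptprz1 was the lowest of the 8 genes in every group. Levels are compared between genes as TPM (a scaled read density that takes transcript length into account), while fold changes come from TMM-scaled counts. In Control, Sdc4 (632 ± 16.4 TPM, SD, n = 3) and Lrp1 (624 ± 61.0) stood highest with overlapping samples. They were followed, each without overlap with the next, by Sdc2 (232 ± 1.73), Sdc1 (189 ± 4.98), Sdc3 (164 ± 9.11), Mdk (24.1 ± 1.36), Ptn (3.14 ± 0.24) and Ptprz1 (0.18 ± 0.07). With OSCAR, Lrp1 (921 ± 61.2) came above Sdc4 (487 ± 9.21), and Sdc2 (266 ± 10.2) and Sdc1 (252 ± 9.96) overlapped, with Sdc3 at 106 ± 1.74. With OSCAR and 5-ASA the order was again Lrp1 (1013 ± 72.7), Sdc4 (511 ± 30.7), Sdc2 (300.2 ± 7.19), Sdc1 (261 ± 16.5) and Sdc3 (98.5 ± 8.60), and no neighbours overlapped. The place of Lrp1 rests on the length used. The deposited lengths weighted its transcripts to between 5955 and 7300 bases, against 14888 for the longest, and with the longest transcript of each gene Lrp1 was at 288 ± 17.5 in Control against 491 ± 2.30 for Sdc4, at 398 ± 16.6 against 376 ± 9.39 in Ad-OSCAR, and at 420 ± 50.7 against 405 ± 18.3 with 5-ASA. That setting was added after the data were seen.

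**Figure D1:**
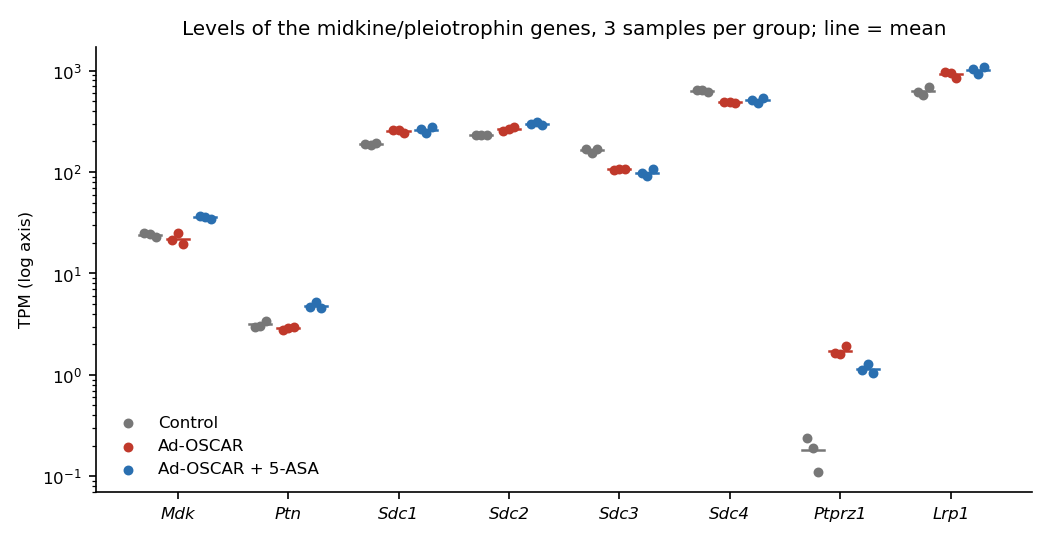
Level of each gene in each sample (TPM, log axis), with Control in grey, Ad-OSCAR in red and Ad-OSCAR + 5-ASA in blue, and a line at the mean of 3 samples. Mdk and Ptn are highest in the blue samples, Sdc3 and Sdc4 are highest in the grey samples, and Ptprz1 lies between 0.11 and 0.24 TPM in the grey samples and above 1 TPM in the others.

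Both ligands were highest in the drug-treated cells. Mdk (ENSMUSG00000027239.14, chr2:91929805-91932297, minus strand, GRCm38) was at 25.3, 24.4 and 22.7 TPM in the Control samples, at 21.6, 25.2 and 19.4 in the Ad-OSCAR samples and at 36.7, 36.1 and 34.7 with 5-ASA. The 5-ASA samples lay above all 6 others, and Control and Ad-OSCAR overlapped. Its log2 fold change was -0.17 ± 0.11 (SE) for Ad-OSCAR against Control, 0.79 ± 0.10 for 5-ASA against no drug in Ad-OSCAR cells (1.73-fold) and 0.62 ± 0.10 for Ad-OSCAR + 5-ASA against Control (1.54-fold). These values rest on 157 to 377 counts per sample.

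Ptn (ENSMUSG00000029838.11, chr6:36714929-36810220, minus strand) was at 3.00, 3.01 and 3.42 TPM in Control, at 2.77, 2.93 and 3.00 in Ad-OSCAR and at 4.64, 5.20 and 4.62 with 5-ASA, from 55 to 130 counts per sample. As for Mdk, the 5-ASA samples lay above all others. The log2 fold changes were -0.14 ± 0.15 for OSCAR, 0.83 ± 0.14 for 5-ASA (1.78-fold) and 0.69 ± 0.14 for Ad-OSCAR + 5-ASA against Control (1.62-fold). On the CPM scale all 3 Ad-OSCAR samples of Ptn lay below the Control samples, although the difference was smaller than its SE. The ratio of Mdk to Ptn in TPM was 7.72 ± 0.97 in Control, 7.63 ± 1.08 in Ad-OSCAR and 7.45 ± 0.49 with 5-ASA (SD, n = 3), so these groups differed by less than their spread. Both genes were picked for the same pattern over these groups, so a steady ratio follows in part from that choice. The comparisons share the Control or the Ad-OSCAR samples and are not independent of each other.

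The genes whose centred log2 CPM over the 9 samples lay nearest to that of Mdk, among 13266 genes with a mean of at least 1 CPM, were Lbp (LPS-binding protein, an acute-phase protein), Brd3os, Fndc1, Slc9a9 (an endosomal sodium-proton exchanger) and Otub2 (a deubiquitinase), with root-mean-square differences of 0.0737, 0.110, 0.110, 0.111 and 0.119. For Ptn they were Otub2, Lbp, Fndc1, Tlcd2 and Prss23 (a secreted serine protease), at 0.0967, 0.124, 0.127, 0.134 and 0.137. Otub2, Lbp and Fndc1 stood in both lists. The difference between Mdk and Ptn themselves was 0.138, with 10 other genes nearer to Mdk than Ptn was and 5 nearer to Ptn than Mdk was. Lbp, the nearest to Mdk, averaged 330 CPM in Control, 279 in Ad-OSCAR and 479 with 5-ASA. All these distances come from the same libraries, and the genes were chosen by the likeness. Mdk and Ptn were themselves picked for the same pattern over these groups, so their nearness to each other was partly built in.

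**Figure D2:**
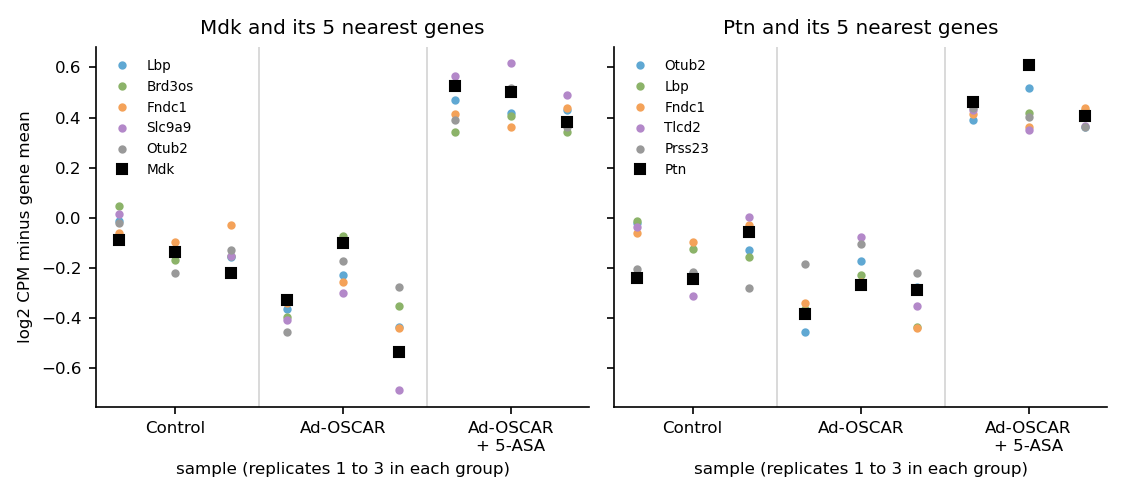
Centred log2 CPM (each gene's value minus its mean over 9 samples) of Mdk and Ptn (black squares) and of the 5 genes nearest to each (coloured points), by sample. In both panels the 3 samples of Ad-OSCAR + 5-ASA lie above 0 and the Control and Ad-OSCAR samples mostly lie below it.

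RefSeq's promoter table (GRCm38.p6) held 6 of the 8 genes, and the 250 bases before the start are shown for Ptn, the ligand it holds, for Ptprz1, the receptor with the greatest fold change, and for Sdc4, the most abundant syndecan. Capitals mark matches, on either strand, to any of 5 motifs: the GC box GGGCGG, the TATA box TATAAA, the CCAAT box CCAAT, the AP-1 motif TGANTCA and the NF-kB type motif GGGAATTCC. The sequences are chr6:36810180-36810429 on the minus strand for Ptn, chr6:22875252-22875501 on the plus strand for Ptprz1 and chr2:164443189-164443438 on the minus strand for Sdc4. RefSeq's start need not be the outer end of the GENCODE gene: the Sdc4 window lies before the coding transcript but inside the span that the non-coding transcript gives the gene, and the Ptn window overlaps its gene's outer end.
Ptn: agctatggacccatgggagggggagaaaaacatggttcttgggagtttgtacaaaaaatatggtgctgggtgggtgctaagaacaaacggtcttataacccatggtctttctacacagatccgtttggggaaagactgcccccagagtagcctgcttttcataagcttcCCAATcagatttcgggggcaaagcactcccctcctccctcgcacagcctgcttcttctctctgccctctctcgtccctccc
Ptprz1: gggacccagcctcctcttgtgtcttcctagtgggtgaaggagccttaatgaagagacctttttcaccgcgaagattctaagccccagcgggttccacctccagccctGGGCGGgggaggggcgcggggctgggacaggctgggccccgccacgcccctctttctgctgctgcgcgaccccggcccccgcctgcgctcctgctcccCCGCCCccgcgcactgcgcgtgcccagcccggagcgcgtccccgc
Sdc4: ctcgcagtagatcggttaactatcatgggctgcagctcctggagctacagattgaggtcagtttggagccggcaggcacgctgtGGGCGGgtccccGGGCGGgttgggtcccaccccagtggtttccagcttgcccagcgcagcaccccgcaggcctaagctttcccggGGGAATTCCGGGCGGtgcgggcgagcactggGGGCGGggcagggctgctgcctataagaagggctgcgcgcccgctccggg
The Ptn window held a CCAAT box and no GC box, and its GC content was 52.0%, against 71.6% for Ptprz1 with 2 GC boxes and 68.0% for Sdc4 with 4. Over 32851 promoters of this length, 32.7% held a GC box, 33.8% a CCAAT box, 12.4% a TATA box and 6.75% an AP-1 motif. The NF-kB type motif stood in 0.21% of them and, of the 6 windows, in that of Sdc4, directly before a GC box. No window of the 6 held the letters of the TATA box or of the AP-1 motif, which says nothing about either factor.

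In the comparison of Ad-OSCAR with Control, which asks what the receptor did to these genes, all 6 tested genes passed an adjusted p of 0.05 (quasi-likelihood F test of edgeR, Benjamini-Hochberg adjusted over 15362 genes). Sdc1, Sdc2, Lrp1 and Ptprz1 were higher and Sdc3 and Sdc4 were lower. Calls were frequent in this comparison, with 65.0% of all genes called (32.7% higher and 32.2% lower), so a count of 6 of 6 says little about this family. Counting samples instead, the CPM of the groups did not overlap for any of the 6 genes, against 69.0% of all genes without overlap. Under a stricter limit from the study's methods, a log2 fold change over 1.5, Ptprz1 alone was called of the 6, against 9.96% of all genes.

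The 4 syndecans are encoded in 5 exons each and end in the same short tail, which binds the PDZ domains of the adaptor syntenin. The last 60 coding bases of the main transcript are printed to show that shared end beside the part that differs, with the final 5 codons, stop included, in capitals (GENCODE M21, GRCm38). They lie in exon 5 at chr12:8791748-8791807 (plus strand) for Sdc1, chr15:33032481-33032540 (plus) for Sdc2, chr4:130822750-130822809 (plus) for Sdc3 and chr2:164426086-164426145 (minus) for Sdc4.
Sdc1: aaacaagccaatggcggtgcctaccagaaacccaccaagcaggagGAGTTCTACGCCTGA
Sdc2: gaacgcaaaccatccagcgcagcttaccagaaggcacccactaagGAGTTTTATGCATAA
Sdc3: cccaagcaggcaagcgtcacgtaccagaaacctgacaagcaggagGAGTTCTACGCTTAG
Sdc4: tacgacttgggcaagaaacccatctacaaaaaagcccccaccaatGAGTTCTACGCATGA
Position by position, without gaps, Sdc1 and Sdc3 shared 63.3% of the 60 bases, Sdc2 and Sdc4 51.7%, and the 4 other pairs 36.7 to 43.3%. In the 15 bases in capitals, 11 to 14 were shared by any pair. Sdc1 and Sdc3, the nearest pair over the 60 bases, moved in opposite directions with OSCAR.

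Sdc1 (chr12:8771323-8793715), a syndecan best known from epithelia and plasma cells, was at 187, 186 and 195 TPM in Control, at 258, 258 and 241 in Ad-OSCAR and at 263, 243 and 276 with 5-ASA. Every OSCAR-infected sample lay above the Control samples. The OSCAR effect was 0.40 ± 0.05 (log2 ± SE, 1.32-fold, adjusted p = 4.05e-07, edgeR). Sdc2 (chr15:32920723-33034935), the syndecan of mesenchymal cells, was at 231, 231 and 234 TPM in Control, at 255, 265 and 276 in Ad-OSCAR and at 299, 308 and 294 with 5-ASA. Its 3 groups did not overlap and stood in that order. Its OSCAR effect was smaller than that of Sdc1, 0.17 ± 0.04 (1.12-fold, adjusted p = 0.00273, edgeR).

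Sdc3 (chr4:130792537-130826319), known as a pleiotrophin receptor of neurons and of developing cartilage, was at 169, 154 and 170.3 TPM in Control, at 104, 107 and 107 in Ad-OSCAR and at 96.9, 90.8 and 108 with 5-ASA. Control lay above every OSCAR-infected sample. Sdc3 fell by 0.64 ± 0.05 on the log2 scale (0.64-fold, adjusted p = 4.07e-09, edgeR), the greatest decrease in this family. It overlaps the antisense genes Gm12970 and Gm26716, and the strand setting of the counting was not given in the sources used here. Sdc4 (chr2:164424247-164443887), which is found at focal adhesions, was at 643, 641 and 613 TPM in Control, at 496, 487 and 477 in Ad-OSCAR and at 514, 479 and 541 with 5-ASA. Here too the Control samples were the highest. The OSCAR effect was -0.41 ± 0.04 (0.75-fold, adjusted p = 1.54e-07, edgeR). Of the Sdc4 level, 69.5 ± 2.36% (SD, n = 3) in Control, 69.1 ± 3.26% in Ad-OSCAR and 71.7 ± 1.58% with 5-ASA was assigned to the coding transcript of 2458 bases, as the weighted length implies, and the rest to a non-coding one of 797 bases.

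With OSCAR, the opposite movements changed the make-up of the syndecans, and their summed TPM was lower. The sums are given on the TPM scale only. The summed TPM of the 4 genes was 1218 ± 10.1 in Control, 1110.5 ± 8.28 in Ad-OSCAR and 1171 ± 48.4 with 5-ASA. The share of Sdc4 in that sum was 51.9 ± 1.18% in Control, 43.8 ± 0.63% in Ad-OSCAR and 43.7 ± 0.83% with 5-ASA, and that of Sdc3 13.5 ± 0.70%, 9.57 ± 0.19% and 8.40 ± 0.39%. Sdc1 took 15.6 ± 0.47%, 22.7 ± 0.74% and 22.3 ± 0.50%, and Sdc2 19.0 ± 0.27%, 23.9 ± 1.06% and 25.7 ± 1.68%. For all 4 shares Control and Ad-OSCAR did not overlap, whereas between Ad-OSCAR with and without the drug the samples were separate for Sdc3 alone, by -1.16 points. Among the 12 share comparisons, the exact two-sided permutation test gave no p under 0.1, the smallest that 3 against 3 samples allow (0.133 after Benjamini-Hochberg adjustment), so this test could not reach 0.05.

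**Figure D3:**
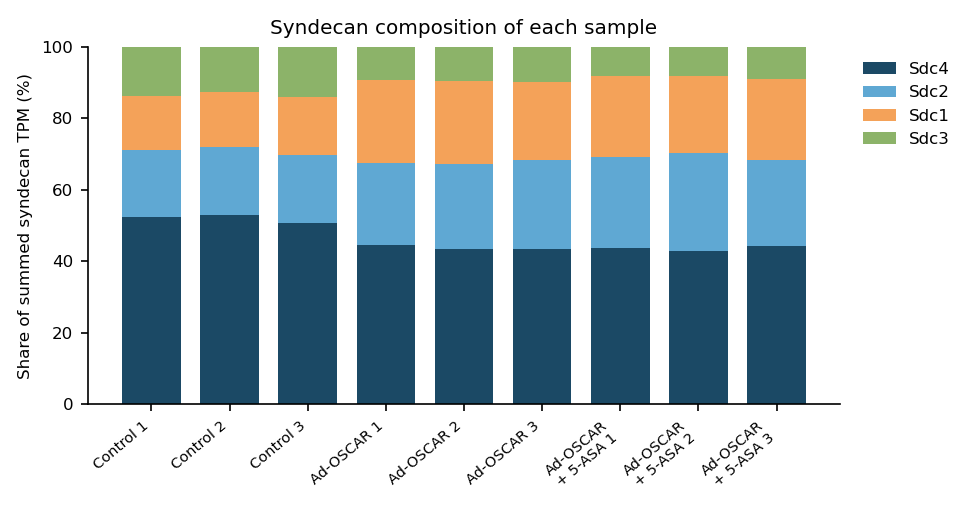
Share of each syndecan (%) in the summed TPM of Sdc1 to Sdc4, 1 bar per sample. The dark blue part, Sdc4, is over 50% in each Control sample and between 42 and 45% in the other 6, while the orange part, Sdc1, is wider in those 6.

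Ptprz1 (chr6:22875502-23052916) was close to the detection limit in Control, at 15, 13 and 7 counts, and was at 149, 117 and 156 counts in Ad-OSCAR and 92, 116 and 80 with 5-ASA. In TPM these were 0.24, 0.19 and 0.11, then 1.63, 1.60 and 1.94, then 1.12, 1.27 and 1.04, and the 3 groups did not overlap. It rose with OSCAR by 3.24 ± 0.21 on the log2 scale (9.47-fold, adjusted p = 2.02e-10, edgeR), the greatest change of the 6 tested genes, from the lowest level of the 8 genes. Its annotated coding isoforms have 8068, 6871 and 4947 bases. The 4947-base form lacks 2547 coding bases of a 3547-base exon of the longest form, and the weighted length was exactly 4947 bases in Control 1 and Control 2 and between 5036 and 5724 in the other samples. The assignment of so few reads to isoforms is imprecise. Of the related genes, Tnc, whose protein tenascin-C is bound by PTPRZ1, was at 93.4 TPM in Control and 444 in Ad-OSCAR.

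Lrp1 (chr10:127538161-127621148) was at 608, 573 and 692 TPM in Control, at 971, 938 and 853 in Ad-OSCAR and at 1025, 935 and 1079 with 5-ASA. The Control samples were the lowest. It rose with OSCAR by 0.43 ± 0.06 (1.35-fold, adjusted p = 5.62e-06, edgeR), from 52404 to 59808 counts per Control sample. The antisense gene Gm16217 lies within it. Over the 7 genes with more than 1 transcript, 21 comparisons of the weighted length were made, and the groups were separate in 1 of them, Lrp1 in Ad-OSCAR + 5-ASA against Control, with a difference of -728 bases (6273 ± 380.2 against 7001 ± 278, SD). No adjusted p of the exact two-sided permutation test was under 0.646, and this test cannot give an unadjusted p under 0.1 with 3 against 3 samples, so it could not show a change of length at 0.05.

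**Figure D4:**
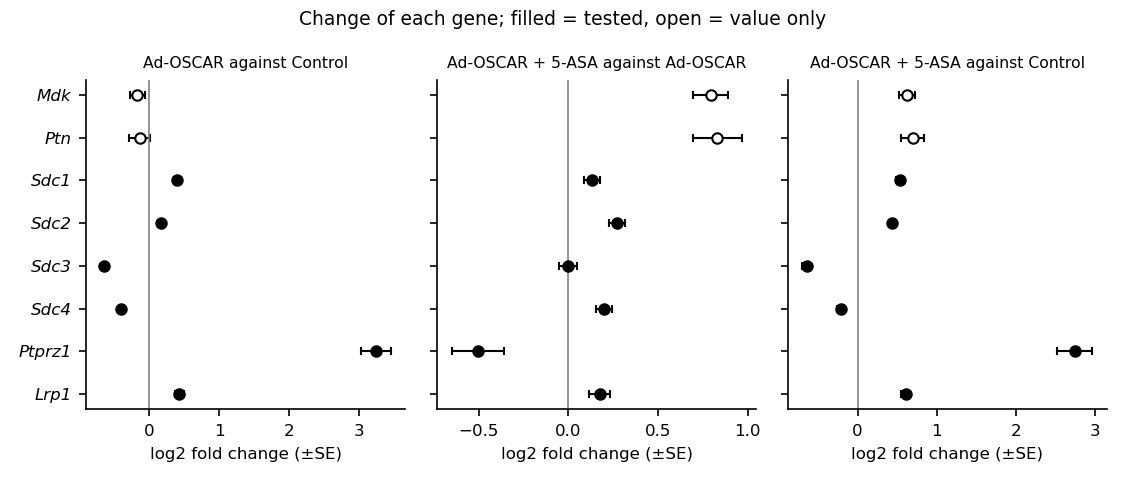
Log2 fold change with its SE for each gene in the 3 comparisons (3 against 3 samples each). Filled points are tested genes and open points are Mdk and Ptn, given as values only. The open points lie at 0.79 and 0.83 in the middle panel, where the highest tested gene, Sdc2, lies at 0.27. Mdk and Ptn were picked for being higher with the drug, so their distance from the filled points there follows in part from that choice. It does not show a stronger response than that of the tested genes. Ptprz1 lies at 3.24 in the left panel. The horizontal scales differ between the panels.

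The comparison of Ad-OSCAR cells with and without 5-ASA asks what the drug did. Of the 6 tested genes, Sdc1, Sdc2 and Sdc4 were called higher and Ptprz1 was called lower, against 17.8% of all genes called (10.4% higher and 7.38% lower). The CPM of the groups was separate for 4 of the 6 genes (33.8% of all genes), Sdc3 and Lrp1 being the exceptions. None of the 6 passed the limit of a 1.5-fold change with an unadjusted p under 0.05 (edgeR), against 4.15% of all genes, and 4 passed the adjusted p alone.

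Sdc2 was higher with 5-ASA by 0.27 ± 0.04 (1.21-fold, adjusted p = 0.000219, edgeR), and this call held in each of 19 alternatives. Sdc4 was higher by 0.20 ± 0.04 (1.15-fold, adjusted p = 0.00344, edgeR), and Sdc1 by 0.13 ± 0.05 (1.10-fold, adjusted p = 0.0480, edgeR). On the TPM scale neither call held: limma gave 0.07 with adjusted p from 0.412 to 0.531 for Sdc4, and 0.05 with adjusted p from 0.646 to 0.704 for Sdc1, while the median gene tested here shifted by -0.08 to -0.10 on that scale, against -0.0044 on the count scale. The call of Sdc1 was also lost in 11 of the 16 other alternatives, among them the removal of any 1 of 8 of the 9 samples. Sdc3 differed by -0.0015 ± 0.05 (adjusted p = 0.990, edgeR).

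Ptprz1 fell by 0.50 ± 0.15 with 5-ASA (0.71-fold, adjusted p = 0.0226, edgeR) and remained 6.68-fold above Control (2.74 ± 0.23 on the log2 scale, adjusted p = 5.30e-09, edgeR). The call with 5-ASA was lost without Ad-OSCAR 1 (adjusted p = 0.0575, edgeR), Ad-OSCAR 3 (0.105), Ad-OSCAR + 5-ASA 1 (0.0826) or Ad-OSCAR + 5-ASA 3 (0.0978), and in the 3 limma fits on TPM. Lrp1 differed by 0.17 ± 0.06 (1.13-fold, adjusted p = 0.0555, edgeR) and so missed the threshold narrowly, with 7 of 19 alternatives past it.

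Set side by side, Sdc1 and Sdc2 were called higher in both steps, Sdc3 was lower with OSCAR and differed by less than its SE with the drug, and Sdc4 and Ptprz1 were called in opposite directions. The 5-ASA calls held in 19 of 19 alternatives for Sdc2 and in 16 of 19 for Sdc4. They held in 11 of 18 for Ptprz1 and in 5 of 19 for Sdc1. Against Control, the drug-treated cells had Sdc1 at 0.53 ± 0.05, Sdc2 at 0.44 ± 0.04 and Lrp1 at 0.61 ± 0.06 on the log2 scale, and Sdc3 at -0.64 ± 0.05 and Sdc4 at -0.21 ± 0.04. All 6 were called (adjusted p from 4.51e-09 to 0.000360, edgeR), with 63.2% of all genes called (31.4% higher and 31.8% lower), and the CPM of all 6 was separate, with 66.6% of all genes. At a fold change over 1.5 with an unadjusted p under 0.05, Lrp1 and Ptprz1 were called higher and Sdc3 lower, against 29.9% of all genes. Lrp1 was near that limit, at 1.52-fold, and its call was lost without Control 2 or without Ad-OSCAR + 5-ASA 3.

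The other genes of the pathway were described by lists, whose median log2 fold change stands beside that of all genes, 0.02 for OSCAR and -0.0044 for 5-ASA. The called counts of every list are to be read against the share of all genes called, 32.7% higher and 32.2% lower for OSCAR and 10.4% higher and 7.38% lower for 5-ASA. Of 14 tested other receptors of midkine or pleiotrophin, 6 were higher and 7 lower with OSCAR (median -0.26), and 3 were higher and 1 lower with 5-ASA (median 0.06). The 4 most abundant were Itgb1, an integrin subunit (-0.21 with OSCAR, 0.09 and not called with 5-ASA), Ncl, the nucleolin that binds both factors at the cell surface (-0.73 and 0.19, both called), Itgav (0.20, then -0.05 and not called) and Ptprs, a receptor phosphatase that binds heparan sulfate (0.13, then -0.01 and not called). Among 9 tested other heparan sulfate proteoglycans, 4 were higher and 3 lower with OSCAR (median 0.06), and 4 were higher and none lower with 5-ASA (median 0.20). There Agrn, for agrin, had 0.99 and 0.22, Gpc4, a glypican, 0.18 and 0.18, and Tgfbr3, the betaglycan gene, 0.27 and 0.22, all called. Hspg2, for perlecan, the most abundant of them at 656 TPM in Control, fell by 0.63 with OSCAR and differed by 0.20 with 5-ASA (adjusted p = 0.0534, edgeR).

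Of the 8 genes for syndecan adaptors, 2 were higher and 2 lower with OSCAR (median -0.02), and 1 was lower and none higher with 5-ASA (median -0.05). Of the 2 that were higher, Sdcbp2, a relative of syntenin named after its value was seen, rose by 1.10 from 0.28 TPM (adjusted p = 0.0496, edgeR). Sdcbp, for syntenin, differed by -0.11 with OSCAR (adjusted p = 0.0559, edgeR), Pdcd6ip, for the syntenin partner ALIX, fell by 0.19, Rhog rose by 0.25 and Gipc1 fell with 5-ASA by 0.21. Of the 8 genes for syndecan shedding and heparan sulfate trimming, 5 were higher and 3 lower with OSCAR (median 0.43). Sulf1 and Sulf2, sulfatases that edit heparan sulfate outside the cell, rose by 0.73 and 0.77, and Mmp14, a membrane protease, by 0.65. Timp3, an inhibitor of the sheddases, was at 1065 TPM in Control and fell by 3.35. With 5-ASA 2 of the 8 were higher and 2 lower (median 0.01), Timp3 rising by 0.89 and Sulf2 falling by 0.20.

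In the LDL receptor family, where Lrp1 itself rose with OSCAR, 2 of 12 other tested genes were higher and 9 lower (median -0.37). Lrp10 rose by 0.40, and Vldlr fell by 0.38, while the chaperones Lrpap1 and Mesd fell by 0.29 and 0.27. With 5-ASA 5 of the 12 were higher and none lower (median 0.12), among them Vldlr by 0.32. Of 9 tested PTPRZ1 partners, 3 were higher and 4 lower with OSCAR (median -0.20), and 4 were higher and none lower with 5-ASA (median 0.21). Tnc rose by 2.22 and then by 0.21, Fyn, a kinase that PTPRZ1 opposes, fell by 0.20 and then rose by 0.34, Ctnnb1, for the substrate beta-catenin, fell by 0.43 with OSCAR, and Arhgap35, for the substrate p190RhoGAP, rose by 0.43. Gpc2 stands in both the receptor and the proteoglycan list, and 3 genes stand in both the receptor and the LDL receptor list.

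**Figure D5:**
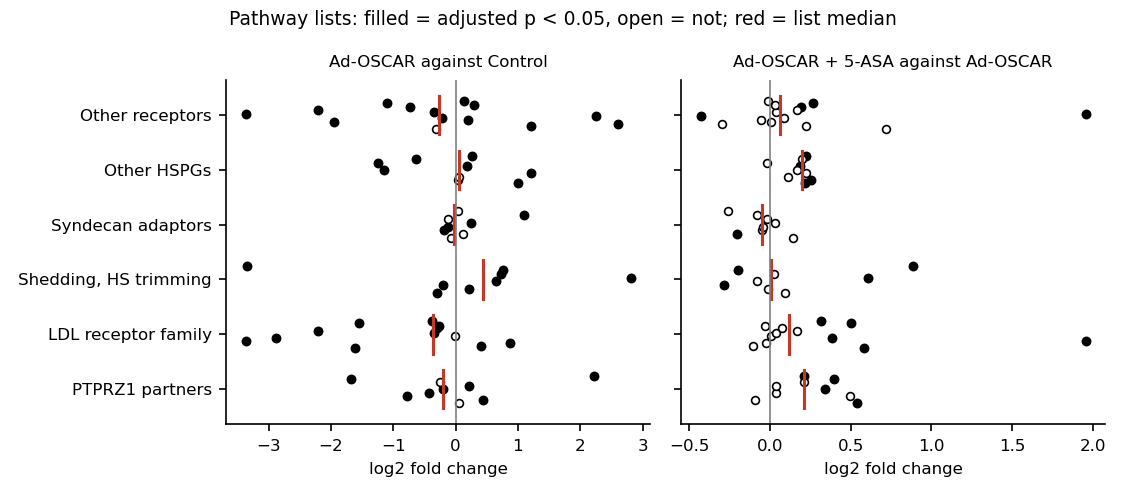
Log2 fold change of each tested gene of the 6 pathway lists with OSCAR (left) and with 5-ASA (right), on different horizontal scales. Filled points passed an adjusted p of 0.05, open points did not, and the red line is the list's median, which lies between -0.37 and 0.43 on the left and between -0.05 and 0.21 on the right.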

How the data were processed

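Total RNA of 9 samples was sequenced by the authors as paired reads of 100 bases from stranded mRNA libraries, trimmed, aligned to the mouse genome GRCm38 and quantified, with STAR 2.7.1a and RSEM 1.3.1 named in the submitters' processing notes. The tables the authors deposited hold, per gene, RSEM's expected counts, TPM and FPKM, the transcript length weighted by isoform and the effective length. FPKM was not used. Gene identifiers were matched to GENCODE M21 (55144 of 55471 matched, 54487 with the same version).

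Expected counts were rounded and tested in edgeR 4.0.16 (R 4.3.3) because the unit is counts. DESeq2 1.42.0, which the study's methods name, and limma 3.58.1 on log2(TPM + 1) were alternatives. The filter filterByExpr kept 15362 genes, all 8 members among them, TMM scaled the counts, and 1 quasi-likelihood model over all 9 samples gave 3 comparisons with Benjamini-Hochberg adjustment over all genes. The common biological coefficient of variation was 5.11%, and the SE was taken from the log2 fold change and the F statistic. The total count per sample ran from 19733448 to 28192740, and replicates of a group differed by more than counting noise (chi-square per degree of freedom 4.03 to 7.52), so none was treated as a duplicate. The scripts were tested on simulated data. Alternatives were the scaling, the filter on low counts, the samples in the fit, the tool, TPM, a replicate block and leaving out each sample.

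The members and the pathway lists were chosen with earlier results of these data known. Named genes were the 8 members and Oscar, the 4 genes of highest mean TPM in each pathway list, and the 5 genes nearest to Mdk and to Ptn, while markers were given as lists. Sdcbp2 was named besides these, after its value was seen. Levels, lengths and shares came from the deposited TPM and lengths, and promoters from RefSeq.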

Additional observations from a re-analysis of the deposited data

How the results depend on the processing

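At the adjusted p, every direction and call of the 6 tested genes for Ad-OSCAR against Control and for Ad-OSCAR + 5-ASA against Control held in each alternative that could be fitted (19, or 18 for Ptprz1, which a minimum of 10 counts in every sample removes). For 5-ASA, Sdc2 held in 19 of 19, Sdc4 in 16, Lrp1 in 12, Ptprz1 in 11 of 18 and Sdc1 in 5 of 19. The value of Sdc3 for 5-ASA, which was near 0, turned to 0.0023 with RLE scaling and with DESeq2 on all samples. It ran from -0.057 to 0.049 when single samples were left out, and was as low as -0.11 among the other settings. The 5-ASA values of Ptn on TPM were as low as 0.58. The replicate numbers gave no sign of pairing: the deviations of same-numbered samples correlated at -0.0210 on average (from -0.0724 to 0.0402). With a replicate block, Sdc1 was no longer called for 5-ASA (log2 fold change 0.13, adjusted p = 0.0740, edgeR) and Lrp1 was (0.17, adjusted p = 0.0388), and no other call of the 6 genes changed.

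For the counts of calls below, the cause of a change was not tested beyond the settings' own construction. For OSCAR at the log2 limit of 1.5, 702 genes were higher and 828 lower. With at least 10 counts in every sample 350 were higher and of the members 0, and on log2(TPM + 1) with and without a filter 279 and 278 were higher, 426 and 425 lower and 0 members higher, the Ptprz1 value being 1.21 there. For 5-ASA, 1598 genes were higher and 1134 lower at the adjusted p, and on TPM 468 (pseudocount 1), 482 (0.1) and 394 (1, no filter) were higher, with 1 member higher and 0 lower in each, and 0 lower with at least 10 counts. Genes called lower numbered 721 to 1127 and members lower 0 to 1 when single samples were left out. At the 1.5-fold limit 349 were higher, against 120 and 119 on TPM, and 288 lower, against 514 with no filter on counts, 151 with at least 10 counts and 177, 561 and 172 on TPM, and members lower 0 to 1 with single samples left out. Against Control, genes higher were 4825 and 3043 on unfiltered TPM, at the fold limit 2241 against 1351 and 1345, and members higher 2 against 1 with at least 10 counts and 1 to 2 with single samples left out (1 without Control 2 or without Ad-OSCAR + 5-ASA 3).

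Syndecan shares computed from counts in place of TPM kept their direction in 11 of 12 comparisons, the exception being Sdc4 with 5-ASA, at -0.15 points by TPM and 0.48 by counts. The values that moved beyond 1 SD were Sdc2 5.82 and 7.97 points, Sdc3 -7.11, -1.97 and -9.08, Sdc4 -5.99 and -5.51. Effective lengths differed by -2.96 bases for Mdk with 5-ASA, and by 5.62 and -3.71 for Ptn with OSCAR and 5-ASA. Ptn and Ptprz1, with 55 to 130 and 7 to 156 counts, had the largest SE of the 8 genes in each comparison (0.15 and 0.21 for OSCAR). The spread within groups was widest for Ptprz1 (SD of log2 CPM 0.27), while that of Ptn (0.09) was below that of Mdk (0.14).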
